A study of Mus musculus with 474 samples.

Results

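The genes described here are those of polyamine metabolism in mouse skeletal muscle. The members were chosen by name: the S-adenosylmethionine decarboxylase genes Amd1 and Amd2 with the pseudogene Amd-ps3, and Odc1, Srm, Sms, Smox, Sat1, Azin1 and Oaz1. The 10 members were found among 20612 genes in the table, and all 10 passed the filter on low counts that left 18823 genes. Amd1, Amd2 and Amd-ps3 were chosen with their difference between the sexes known, so that difference is described for them without a test. The other members and the gene lists were also chosen with earlier results of these data known. Their tests are therefore read as a description, beside the shares over all genes.

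Skeletal muscle RNA was sequenced from Diversity Outbred mice, a stock bred from 8 inbred founder strains, so that no pair of animals has the same genome. A single library per animal was made from the gastrocnemius muscle, as the study's methods name it, and all animals were fed a high-fat, high-sugar diet, so no group on another diet can be compared. The labels give each animal a sex and a number read here as the outbreeding generation, although the study's methods name only 18, 19 and 21 among the 5 numbers, so that for 17 and 23 this reading is uncertain. There were 48 females and 46 males of generation 17, 45 and 48 of generation 18, 49 and 50 of generation 19, 46 and 47 of generation 21, and 47 and 48 of generation 23. Because the animals were genetically distinct, the spread within a group holds genetic differences as well as technical error. The total count per library ranged from 35902446 to 165723762 with a median of 79308916. Levels are given as CPM, the count of a gene per 1000000 counts of its library, scaled by the trimmed mean of M values (TMM). The 5 skeletal muscle markers (Acta1, Ckm, Myh4, Des and Mb) summed to between 70577 and 153474 CPM in every library. In 5 libraries the X-linked transcript Xist or the Y-linked gene Ddx3y lay outside the limits set for the labelled sex. They were 3 labelled female and 2 labelled male. The library DO048, labelled female, was set apart only by Ddx3y at 0.13 CPM, with Xist at 122 CPM. DO193, labelled male, had Xist at 13.4 CPM beside Ddx3y at 93.7 CPM.

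Polyamines are small, positively charged molecules that bind nucleic acids and are needed for growth and translation. Ornithine decarboxylase, made from Odc1, forms putrescine, and the synthases made from Srm and Sms extend it to spermidine and spermine with aminopropyl groups that S-adenosylmethionine decarboxylase provides. Smox and Sat1 encode enzymes of the return path, spermine oxidase and spermidine/spermine acetyltransferase. Oaz1 encodes an antizyme, which directs ornithine decarboxylase to degradation, and Azin1 an inhibitor that binds the antizyme. Odc1 and the decarboxylase of the Amd family are known as rate-limiting steps, and androgens are known to raise polyamine synthesis in several tissues.

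The Amd family is a set of near-identical copies, which bears on every value given for it. Amd1 lies on chromosome 10 at chr10:40287458-40302188 (GRCm38, minus strand) and Amd2 lies 4.58 Mb away on the same chromosome at chr10:35708675-35711892, also on the minus strand and as a single exon of 3218 bases. Their transcripts were identical at 3188 of 3198 aligned bases, and their coding sequences of 1002 bases differed at 1 base, G796C, counted from 1 at the first base of the start codon with the base of Amd1 first. The stretch around it is shown because it is the only place where the reference coding sequences of both genes differ, with the differing base in capitals. The Amd1 window is chr10:40290156-40290216 and the Amd2 window chr10:35710734-35710794, both in coding exons and read along the minus strand.
Amd1: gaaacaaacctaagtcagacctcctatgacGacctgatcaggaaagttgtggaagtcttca
Amd2: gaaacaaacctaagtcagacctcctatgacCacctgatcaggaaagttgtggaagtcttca
Amd-ps3, annotated as a processed pseudogene of 1005 bases on another chromosome, was identical to Amd1 at 1004 of 1005 bases and to Amd2 at 1003. Of all stretches of 100 bases in the transcript, 76.4% in Amd1, 72.9% in Amd2 and 100.0% in Amd-ps3 also occurred in another transcript of the annotation. How the counting divided shared reads among the copies therefore enters each value, and the sum over the 3 genes is given beside them. Outside the family this share was 41.8% in Oaz1, which shares sequence with a pseudogene, 27.7% in Sms, 19.6% in Odc1, 5.45% in Azin1 and 0.376% in Sat1. No such stretch of Srm or Smox occurred elsewhere.

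The sequence in front of Amd1 and Amd2 was not shared. The 250 bases before each RefSeq start site (GRCm38.p6) are shown to set the promoters of these near-identical transcripts side by side, with the letters TATATAA and GGGCGG, read on both strands, in capitals. The Amd1 stretch is chr10:40302189-40302438 and the Amd2 stretch chr10:35711892-35712141, both on the minus strand.
Amd1: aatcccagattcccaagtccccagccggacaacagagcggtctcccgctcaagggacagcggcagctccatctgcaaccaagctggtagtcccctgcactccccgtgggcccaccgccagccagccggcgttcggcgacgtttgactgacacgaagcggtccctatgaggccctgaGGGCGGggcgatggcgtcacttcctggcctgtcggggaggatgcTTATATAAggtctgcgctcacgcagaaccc
Amd2: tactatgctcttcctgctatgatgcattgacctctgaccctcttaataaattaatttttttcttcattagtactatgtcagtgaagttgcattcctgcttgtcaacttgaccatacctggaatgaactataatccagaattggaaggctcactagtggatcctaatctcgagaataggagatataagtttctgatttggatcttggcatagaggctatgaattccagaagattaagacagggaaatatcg
The Amd1 stretch was 64.4% G or C and held both sets of letters, and the Amd2 stretch was 37.6% G or C and held neither. The longest run of identical bases between both stretches was 7. TATATAA stood in 3.24% of 32851 such promoter entries of 300 bases and GGGCGG, which also stood in entries of Odc1, Smox, Sat1 and Sms, in 35.7%. RefSeq entries matched 7 of the 10 members. The letters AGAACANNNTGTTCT, to which steroid receptors such as the androgen receptor are known to bind, stood in no member's entry and in 3 entries in all.

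Amd1 was several-fold higher in males than in females, and no male was as low as any female. In females, Amd1 ranged from 101.9 to 264.2 CPM around a median of 177.9 in generation 17, from 91.4 to 341.9 around 186.8 in generation 18, and from 87.9 to 354.8 around 195.7 in generation 19. It ranged from 98.9 to 385.9 around 167.6 in generation 21 and from 105.4 to 372.3 around 181.9 in generation 23. The female groups overlapped with each other. In males, Amd1 ranged from 464.9 to 2066 CPM around a median of 981 in generation 17, from 516.2 to 2124 around 1109 in generation 18, and from 446.3 to 2099 around 1039 in generation 19. It ranged from 493.97 to 1784 around 1104 in generation 21 and from 529.7 to 1981 around 1054 in generation 23. The highest female stood at 385.9 CPM and the lowest male at 446.3. The log2 difference, male minus female, was 2.52 (SE 0.04), and it lay between 2.41 and 2.60 within each generation and between 2.45 and 2.65 within each block of library numbers. Amd1 was the only gene of 18823 whose CPM did not overlap between the sexes, a share of 0.00531%. Without the 5 libraries named above 10 genes, or 0.0531%, did not overlap: Xist, 8 genes on the Y chromosome, and Amd1 as the only autosomal gene. The 5 libraries lay within the Amd1 range of their labelled sex, at 147.6, 227.2 and 242.5 CPM where labelled female and at 699.4 and 1594 CPM where labelled male.

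Amd2 had a similar median difference and a very different spread. In females of generations 17, 18, 19, 21 and 23 its median was 65.4, 51.5, 76.7, 81.9 and 63.2 CPM, and in males it was 402.3, 461.6, 432.8, 443.9 and 500.9 CPM. The lowest and the highest animal were 0.246 and 308.1 CPM among females and 2.69 and 1322 CPM among males, so the sexes overlapped. The log2 difference was 2.67 (SE 0.18). Amd2 was under 0.1 of the median of its sex in 59 females (25.1%) and in 49 males (20.5%), 22.8% of all animals, and another 12 animals lay between 0.1 and 0.25 of that median. Such low animals occurred in every group, from 7 of 48 males of generation 23 to 16 of 45 females of generation 18. No animal was this low in Amd1, and none was in the sum of the family. Amd-ps3 had medians of 9.93 CPM in females and 70.3 CPM in males with a log2 difference of 2.75 (SE 0.16), and it was under 0.1 of the median of its sex in 23 females and 41 males.

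The sum of the 3 copies kept the separation between the sexes. It ranged from 112.1 to 557.1 CPM in females with a median of 256.96, and from 683.9 to 3048 CPM in males with a median of 1543. The ratio of the medians was 6.004, against 5.797 for Amd1 alone. Amd1 made up 65.7% of the sum in the median female and 63.5% in the median male, with a range from 40.1% to 99.7% over females and from 40.8% to 99.5% over males. The coefficient of variation of the sum was 30.4% in females and 27.7% in males, close to the 30.6% and 32.5% of Amd1 and far under the 83.6% and 74.5% of Amd2.

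**Figure D1:**
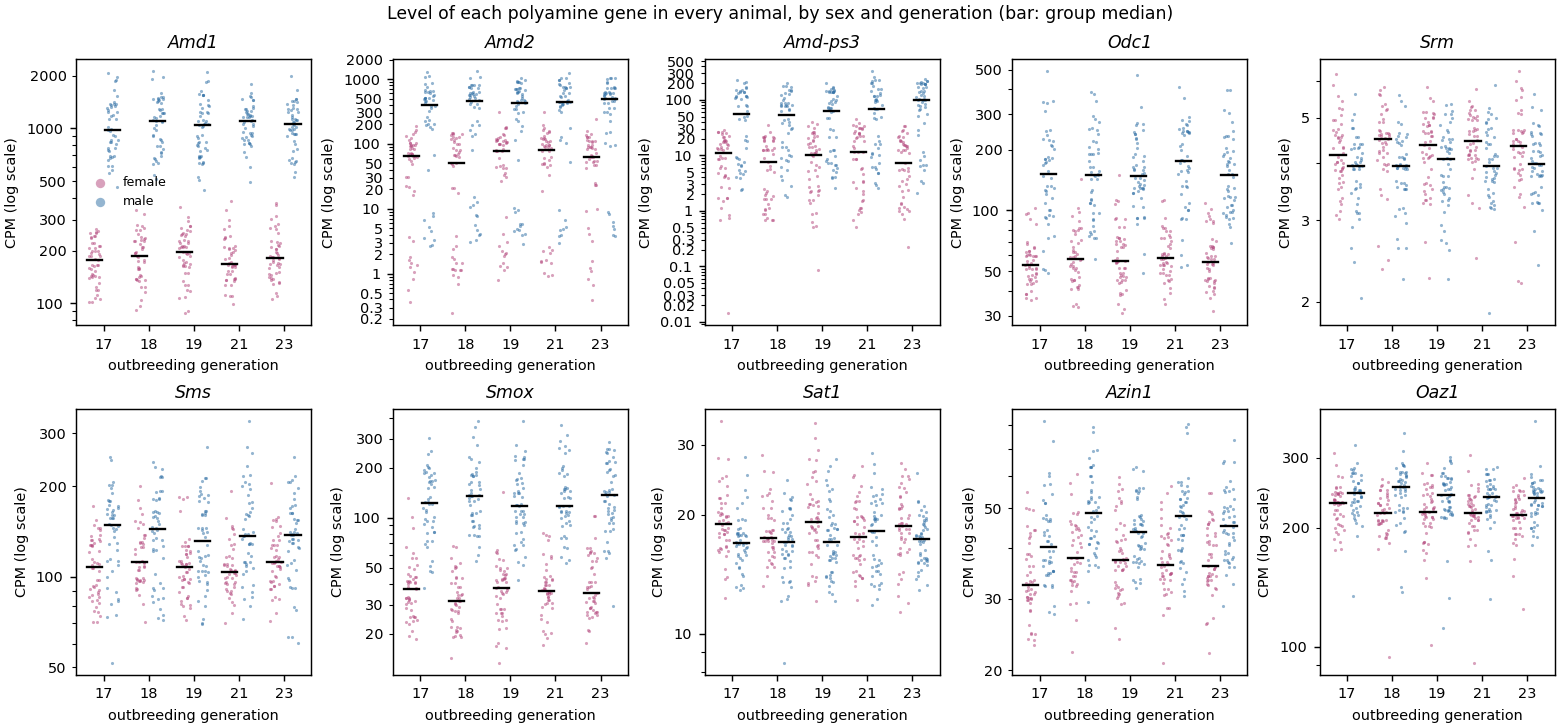
Level of each member in every animal, as TMM-scaled CPM on a log axis, by outbreeding generation on the horizontal axis, females in pink and males in blue, with a bar at the median of each group. The Amd1 clouds of the sexes do not overlap, while Amd2 has a second, low cloud in every group that holds 59 females and 49 males in all.

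Odc1 and Smox were also higher in males, with overlap between the sexes. Odc1 medians in females of generations 17, 18, 19, 21 and 23 were 53.5, 57.5, 56.1, 57.8 and 55.5 CPM, and in males 151.8, 150.2, 148.2, 175.6 and 149.2 CPM. Females ranged from 30.96 to 149.6 CPM and males from 49.04 to 490.98 CPM, and 53.97% of males were above the highest female. Smox medians in the same order were 37.4, 31.5, 37.8, 36.1 and 35.05 CPM in females and 122.2, 135.4, 118.4, 118.5 and 136.3 CPM in males. Smox ranged from 13.4 to 143.4 CPM in females and from 29.4 to 384.6 CPM in males, and 40.2% of males were above the highest female. The log2 difference was 1.495 for Odc1 (SE 0.05, adjusted p = 8.0e-100 by the quasi-likelihood F-test of edgeR) and 1.85 for Smox (SE 0.06, adjusted p = 2.8e-111). Both were called within each of the 5 generations and each of the 5 library blocks. The sex difference of Smox was larger in size than that of 99.5% of the 18823 genes tested, and that of Odc1 larger than that of 99.1%.

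The other members differed between the sexes by much less. Beside Odc1 and Smox, Sms, Azin1 and Oaz1 were higher in males and Srm and Sat1 higher in females, so that all 7 members outside the Amd family passed the threshold, 5 upward and 2 downward. Of all genes tested, 55% passed it, 24.4% higher and 30.6% lower in males, and 5.30% passed with at least a 1.5-fold difference, which among the 7 held only for Odc1 and Smox. Scaling by the total count alone moved the split over all genes to 3330 higher among 10799 called, from 4595 among 10362, and left the direction of each member as it was. Spermine synthase, Sms, had medians of 108.8 CPM in females and 139.9 CPM in males (log2 0.35, SE 0.04, adjusted p = 4.3e-18). Azin1 had medians of 36.2 and 44.7 CPM (log2 0.29, SE 0.03, adjusted p = 3.6e-22), and Oaz1 had 219.2 and 243.2 CPM (log2 0.13, SE 0.02, adjusted p = 5.3e-10). The ranges of the sexes overlapped in each of these genes. Srm, spermidine synthase, had medians of 4.38 CPM in females and 3.95 CPM in males (log2 -0.13, SE 0.02, adjusted p = 5.6e-07). Sat1 had 18.3 and 17.2 CPM (log2 -0.11, SE 0.03, adjusted p = 8.4e-05). Of these smaller differences, that of Azin1 was called in every generation and every block, that of Sms in all but block 5 and that of Oaz1 in all but generation 17. Srm was called in 2 of 5 generations and 2 of 5 blocks, although lower in males in all of them, and Sat1 was called in 2 generations and 2 blocks and stood at 0.016 in generation 21.

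Summed levels of markers of other cell and fibre types overlapped between the sexes and were not tested. The 9 slow fibre markers summed to between 633.6 and 10003 CPM in females (median 3714) and between 895 and 8289 CPM in males (median 2545), and the 9 adipocyte markers to between 440.9 and 2415 CPM (median 856) and between 373.03 and 1630 CPM (median 678.7). Medians in females and males were 106.8 and 103.5 CPM for macrophage, 128.1 and 156.3 CPM for erythroid, 121.2 and 111.7 CPM for Schwann and 194.01 and 207.9 CPM for endothelial markers. In bulk tissue, fewer cells of a type and less RNA per cell cannot be told apart. With the mean scores of 6 marker lists as covariates the log2 difference was 2.42 for Amd1, 1.82 for Smox and 1.46 for Odc1, nearly as large as without them. Sat1 stood at -0.044 (adjusted p = 0.29 in that fit) and was no longer called.

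**Figure D2:**
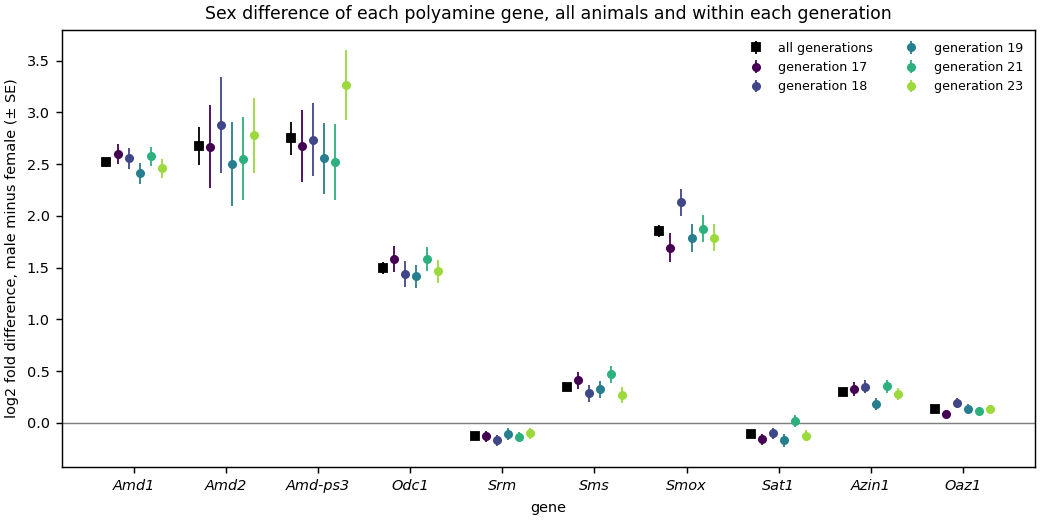
Log2 fold difference of each member, male minus female, with its SE, in all animals (black squares) and within each generation (circles). Amd1, Amd2, Amd-ps3, Odc1 and Smox lie above 1 in every generation, and Srm, Sat1, Azin1, Oaz1 and Sms lie within 0.47 of 0.

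Levels were compared between genes per kilobase of merged exons, as CPM per kb. The order depends on this choice of length. Merged exons spanned 2558 bases in Oaz1, 3405 in Odc1, 3894 in Smox and 2774 in Sat1. The transcripts used above for shared stretches spanned 1071, 2208, 2270 and 1162 bases. For Amd2 both lengths were 3218 bases. An order by transcript length is not given here. In females the order of the medians was Oaz1 (85.7), Amd1 (51.8), Amd2 (20.3), Sms (18.1), Odc1 (16.5), Amd-ps3 (9.88), Smox (9.06), Sat1 (6.61), Azin1 (5.78) and Srm (2.74 CPM per kb). In males it was Amd1 (300.3), Amd2 (139), Oaz1 (95.1), Amd-ps3 (69.99), Odc1 (45.7), Smox (32.5), Sms (23.3), Azin1 (7.14), Sat1 (6.21) and Srm (2.47 CPM per kb). Neighbours in either order overlapped in their ranges over animals. On this measure the antizyme led in females and Amd1 in males, and the 3 members lowest in females were also the 3 lowest in males.

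Between generations, Azin1 was the 1 member of 10 that passed the threshold, with 0.21 on the log2 scale between its highest and lowest generation (adjusted p = 0.0049), where 7.56% of all genes passed. Its group medians ran from 32.4 to 37.6 CPM in females and from 40.1 to 48.6 CPM in males, and the generations overlapped. The range over generations of the other 9 members lay between 0.06 and 0.51, with adjusted p-values from 0.50 upward. Azin1 was not called in females alone (0.19, adjusted p = 0.17) or in males alone (0.22, adjusted p = 0.12).

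The sex difference of no member varied detectably between generations. By edgeR, 0 of 10 interactions passed, and 0 had an unadjusted p under 0.05. The same held with limma on the deposited scores. The background for this test was 0.531% of genes. Smox gave the widest range outside the Amd family, 0.44 on the log2 scale (adjusted p = 0.99), from 1.69 in generation 17 to 2.13 in generation 18.

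Between the 5 blocks of consecutive library numbers, whose meaning the labels do not give, 4 of the 10 members differed, a share near that of all genes (47.4%). Srm (0.35 between the highest and the lowest block, adjusted p = 3.3e-21), Oaz1 (0.29, adjusted p = 8.3e-24), Azin1 (0.18, adjusted p = 0.00014) and Smox (0.30, adjusted p = 0.015) passed. Sex took up 88.3% of the variance of the Amd1 score, 67.3% of Smox, 60.7% of Odc1, 33.1% of Amd-ps3, 21.9% of Amd2, 18.2% of Azin1 and 12.2% of Sms. For Oaz1 and Srm sex took up 8.46% and 6.58%, less than the 19.02% and 13.1% that block took up after sex and generation. Sat1, at 3.61% for sex, was nearest to the median gene, at 1.37%. Scores are the deposited variance-stabilized values (VST), whose unit is not a log2 unit for every gene. Over all genes the median absolute sex difference was 0.050 on the scores and 0.094 on the log2 scale by edgeR. Whether batch effects had been removed from the deposited scores is not known, so the block shares may be what remained after such a step.

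By the SD of the scores, animals of a group differed most in Amd2 and least in Srm. This order depends on the scale. As CPM over all animals of a sex, the coefficient of variation was 13.8% in females and 14.1% in males for Oaz1. For Srm it was 17.4% and 17.8%, for Amd2 83.6% and 74.5%, and for Amd-ps3 87.1% and 87.4%. The SD of the score within groups was 2.37 for Amd2, above 99.9% of all genes, 1.60 for Amd-ps3, 0.61 for Smox, 0.56 for Odc1, 0.46 for Amd1 and 0.40 for Sms. It was 0.29 for Azin1, 0.26 for Sat1, 0.21 for Oaz1 and 0.18 for Srm, beside 0.20 in the median gene. Some members varied more among males than among females. The absolute deviation from the group median was larger in males by 0.21 for Odc1 (SE 0.03, adjusted p = 6.1e-09 by limma), 0.14 for Sms (SE 0.02, adjusted p = 3.8e-07) and 0.12 for Smox (SE 0.03, adjusted p = 0.016). Amd-ps3 passed as well (0.37, adjusted p = 0.0053), while Amd1 did not (0.043, adjusted p = 0.39). Thus 4 of 10 members passed upward and 0 downward, where 5.55% of all genes passed, 1.75% upward and 3.80% downward. On log2 CPM in place of the scores, Smox (adjusted p = 0.072) and Amd-ps3 (adjusted p = 0.78) did not pass.

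Within groups, animals with more Amd1 tended to have more Smox. The mean over the 10 groups of Pearson r of the scores was 0.47, with a range from 0.27 to 0.62 and 45 to 50 animals a group. Of 18822 other genes, Smox was the one most strongly correlated with Amd1, and Amd1 the one most strongly correlated with Smox. The mean r was 0.38 in females and 0.55 in males, and it was 0.46 without the 2 animals of each group farthest from the median of Amd1. The sum of the Amd family had a mean r of 0.63 with Smox on log2 CPM. Amd1 also had a mean r of 0.29 with Sms, positive in all 10 groups, of 0.18 with Azin1 and of 0.16 with Odc1, the last of which was 0.092 after the marker scores were removed. The genes of a pair were measured in the same libraries, which differ in depth and block, and no p is given for these correlations.

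Odc1 and Smox had a mean r of 0.42 in males and 0.05 in females, a difference that was not tested. Odc1 with Sms stood at 0.22, positive in every group. The antizyme Oaz1 ran against its inhibitor Azin1, at -0.34 and negative in every group, and against Sat1, at -0.25. Srm and Oaz1 had a mean r of 0.39, which was 0.28 after block was removed within groups. For Oaz1 and Srm a correlation of this size was common: 22.88% of all genes had an absolute r over 0.3 with Oaz1 and 10.97% with Srm, but 0.218% had one with Amd1, 0.393% with Smox and 0.170% with Odc1. Of the 45 pairs of members, 5 had an absolute mean r of at least 0.3.

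**Figure D3:**
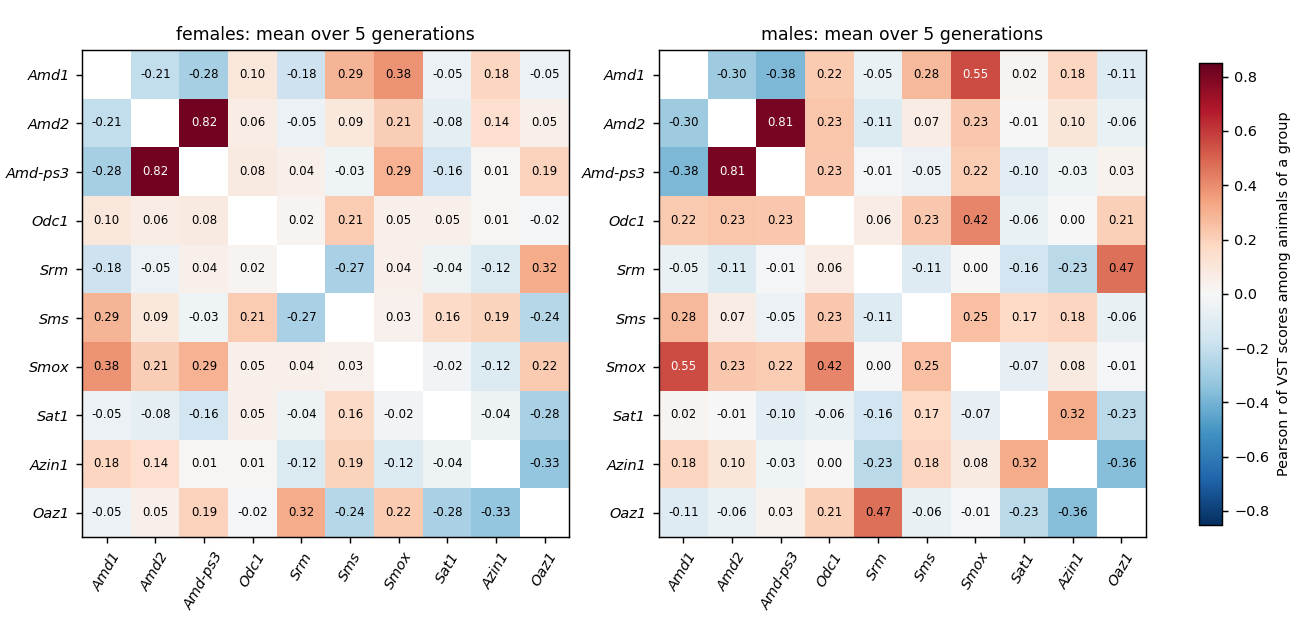
Mean over the 5 generations of the within-group Pearson r of VST scores for every pair of members, in females (left) and males (right), with the value in each cell. Amd2 with Amd-ps3 is the strongest pair in both sexes, followed by Amd1 with Smox at 0.38 in females and 0.55 in males.

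Amd2 and Amd-ps3 rose and fell together and against Amd1. Their mean r was 0.81, with a range over groups from 0.76 to 0.90. Amd1 had a mean r of -0.26 with Amd2 and of -0.33 with Amd-ps3, negative in all 10 groups for both. As these genes share most of their sequence, a trade of reads between the copies and opposite levels of the copies cannot be told apart here.

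**Figure D4:**
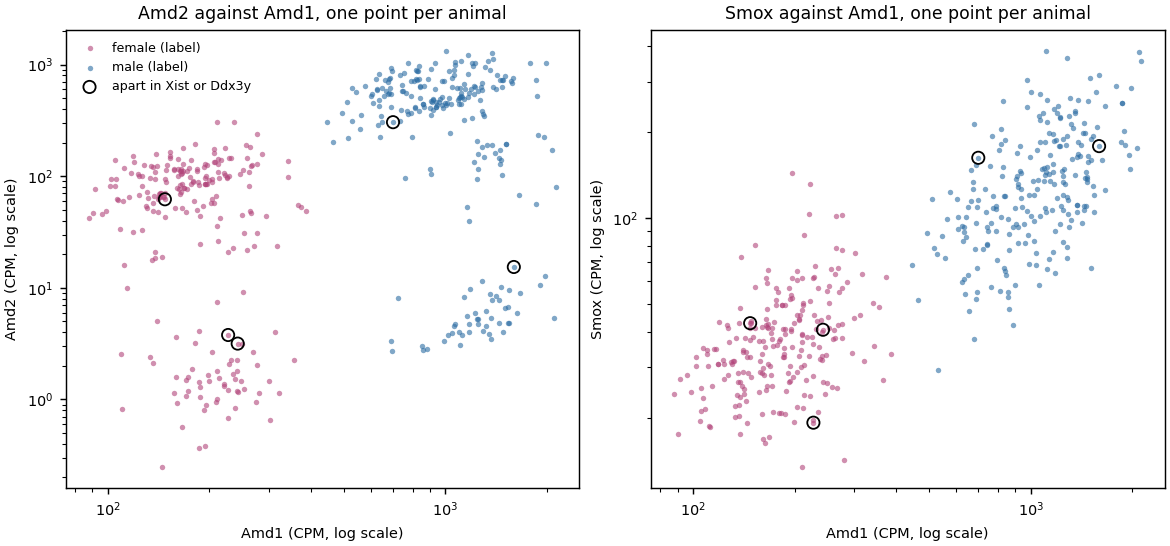
Amd2 (left) and Smox (right) against Amd1, all as CPM on log axes, with 1 point per animal colored by labelled sex and circles around the 5 libraries apart in Xist or Ddx3y. Amd2 splits animals of each sex into a high and a low cloud, while Smox forms a single cloud in each sex and rises with Amd1 in both.

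After Amd-ps3, the genes most like Amd2 lay on chromosome 10 with it, and 2 of the leading 3 started within 0.1 Mb of Amd1. The 3 non-members with the highest mean r were Gm37786 (0.76, start 4.51 Mb beyond that of Amd2), Gm26535 (0.54, 1.63 Mb beyond) and Cdk19 (0.48, 4.63 Mb beyond), the last of which encodes a kinase of the Mediator complex. The most negative were E130307A14Rik (-0.71), Mfsd4b1 (-0.62) and Fig4 (-0.60), which start between 3.91 and 5.48 Mb beyond it. Of all chromosome 10 genes, 20 had an absolute mean r over 0.3 with Amd2, 3 of them among the 26 within 4 Mb of Amd2, and of 17985 genes on other chromosomes 2 had, Amd-ps3 being 1 of them. Both Amd-ps3 and Amd2 had Gm37786 (0.69 for Amd-ps3) and Gm26535 (0.51) as their leading correlates, and Snx3, also on chromosome 10, came next for Amd-ps3 (0.47). Of the 70 genes within 4 Mb of Amd-ps3 on chromosome 18, 0 had an absolute r over 0.3 with it. On other chromosomes 19 of 18349 genes (0.104%) had one, so a count of 0 among 70 is not unusual. Of the non-members, Amd1 was most like Neto2 on chromosome 8 (0.44), Mfsd4b1 0.286 Mb before it (0.40) and the X-linked Phka1 (0.39), a regulatory subunit of muscle phosphorylase kinase. Mfsd4b1 thus stood at 0.40 with Amd1 and at -0.62 with Amd2. Animals share founder segments over such distances, so genes of 1 stretch of chromosome are not independent points.

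**Figure D5:**
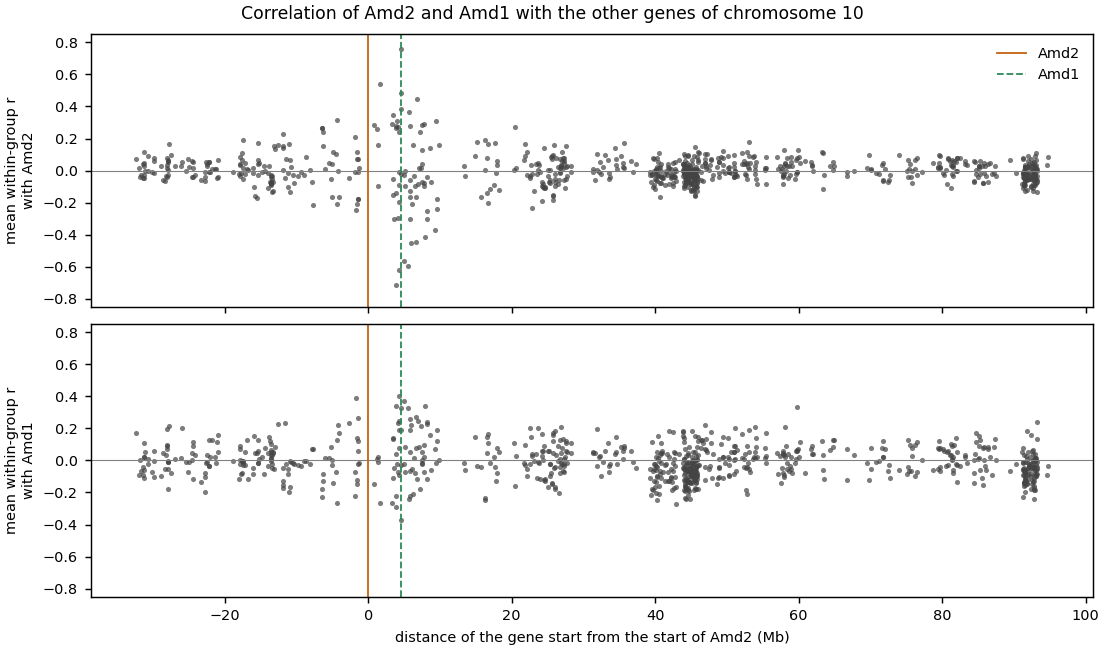
Mean within-group Pearson r of every other tested gene of chromosome 10 with Amd2 (top) and with Amd1 (bottom), against the distance of its start from that of Amd2 in Mb, with vertical lines at both genes. With Amd2, the lowest value (-0.71) and the highest (0.76) both stand between the genes.

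Odc1 was most like Kcnf1 (0.53), a potassium channel gene on chromosome 12 whose start lies at -0.373 Mb from that of Odc1, followed by 1700001O22Rik (0.48) and Emc3 (0.44) on other chromosomes. Smox was most like Dupd1 (0.46), Phka1 (0.45) and Camk2a (0.40), a calcium-dependent kinase, of the non-members. Phka1 was thus among the 3 leading correlates of both Amd1 and Smox. Oaz1 was most like Map2k2 (0.82) and Dohh (0.78), which both start within 0.558 Mb of it on chromosome 10, and Rab1b (0.78). Dohh encodes the hydroxylase that completes hypusine, a residue of Eif5a made from spermidine. Sat1 went with Ccnl1 (0.59), Klf6 (0.48) and Klf3 (0.47), Azin1 with Arf4 (0.61), Rnf115 (0.60) and Mapre1 (0.59), Sms with Eif1ax (0.43), Lsm14a (0.42) and Rab10 (0.42), and Srm with Gnb2 (0.53), Pgls (0.50) and Apba3 (0.50 as well). None of the members had a mean r over 0.20 in size with the score of any of 6 marker lists or with the log2 total count.

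In the wider polyamine pathway, the balance of higher and lower genes between the sexes moved with the scaling. Of 32 listed genes of methionine salvage, hypusine formation, arginine breakdown, polyamine oxidation and transport, 30 were in the table and 29 passed the filter. Of these, 10 were higher and 10 lower in males, against 55% of all genes called in either direction, and 9 did not pass. Scaled by the total count alone, 6 were higher and 10 lower. Their median log2 difference was 0.0060, beside -0.014 over all genes tested. The 3 largest rises in males were those of Adi1 (0.45, SE 0.03, adjusted p = 6.0e-48), a dioxygenase of methionine salvage, Mat2a (0.23, SE 0.02, adjusted p = 1.1e-22), which makes S-adenosylmethionine, and Azin2 (0.22, SE 0.04, adjusted p = 3.3e-08), a second antizyme inhibitor. Adi1 and Mat2a were called in every generation and every block. The product of Mat2a stands before the reaction of S-adenosylmethionine decarboxylase in the pathway, and that of Adi1 after it. Among the falls was that of the cation transporter Slc22a2 (-0.52, SE 0.13, adjusted p = 0.00034), at a median of 0.249 CPM in females and 0.194 CPM in males. Slc22a2 stood at 0.16 and was not called with the marker scores as covariates. Of the other antizyme genes, Oaz2 was higher in males by 0.09 and Oaz3 stood at -0.13 without passing. Eif5a, the protein modified with spermidine, was lower in males by 0.04, and Dohh and Dhps, which modify it, did not pass.

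Between generations, 3 of the 29 pathway genes passed, against 7.56% of all genes. They included the transporter gene Slc22a3 (0.35 on the log2 scale between the highest and the lowest generation, adjusted p = 0.0011) and Mat2a (0.13, adjusted p = 0.028).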

How the data were processed

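Polyadenylated RNA of skeletal muscle was sequenced. The authors treated both mates of each read pair as single reads, aligned them to a transcriptome of the 8 founder strains and deposited expected counts for each gene from EMASE, run within GBRS, so that shared reads were divided by estimation. Their versions and the use of strand were not given in the sources used here. The other table the authors deposited holds a score, the variance stabilizing transform of DESeq2, for which the methods also describe removal of batch effects, and whether it was applied to the deposited scores is not known. Gene positions were deposited too, and 99.5% of the starts equal those of GENCODE M21 (GRCm38). Columns were matched to samples by animal number.

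Here the deposited expected counts were first rounded. They were fitted in R 4.3.3 by edgeR 4.0.16, and limma 3.58.1 and DESeq2 1.42.0 served as stated or as alternatives. Genes were kept by filterByExpr at a minimum count of 10 over the 10 groups, which left 18823, and scaling was by TMM (factors from 0.871 to 1.29). Tests were quasi-likelihood F-tests with trended dispersions. Sex was tested with generation as a covariate, generation with sex, their interaction with both, and library block with both. Spread was tested by limma on absolute deviations of the scores from the group median. Benjamini-Hochberg adjustment ran over every gene tested and the threshold was 0.05. The code was tested on simulated data. P-values measure the spread between animals, which were treated as unrelated. The study used kinship as a random effect in its mapping of expression, and kinship was not modelled here. Wave, a covariate of the study, was not analysed here. Blocks are stretches of consecutive library numbers with 91 to 96 libraries each. Libraries apart in sex-linked RNA were those labelled female with Xist under 50 CPM or any Ddx3y, or labelled male with Ddx3y under 50 CPM or Xist over 5 CPM. Transcripts came from GENCODE M21 and promoters from RefSeq (GRCm38.p6), read in Python 3.11.15 with biopython 1.88.

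The genes named were all members, for each member the 3 non-members with the highest mean within-group r, and of the pathway genes past the threshold the 3 largest rises, falls or ranges. The 3 lowest correlates of Amd2, and Oaz2, Oaz3, Eif5a, Dhps and Dohh among the pathway genes, were named after their values were seen. Of the listed pathway genes, Satl1 and Mat1a were not analysed here, and some values that the rule names are not reported here. The members and lists were chosen with earlier results of these data known. Alternatives were other scalings, filters, tests and covariates, subsets of the animals, and other measures of correlation and spread.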

Additional observations from a re-analysis of the deposited data

How the results depend on the processing

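Of the 7 members outside the Amd family, 6 kept the direction of the sex difference under every alternative, the exception being Sat1 at 0.016 in generation 21 alone. All 7 were called between the sexes under each other scaling, filter and test, Sat1 was lost with the marker scores as covariates, and 1 or 2 of the 7 were lost within each single generation and block, which hold fewer animals. For pathway genes the number was 20 in all animals, 16 with scaling by the total count, 15 with the marker scores, 10, 8, 7, 9 and 7 within generations 17, 18, 19, 21 and 23, and 6, 7, 10, 12 and 6 within blocks 1 to 5. Azin1, the 1 member called between generations, was not called in either sex alone (0 members in each), and of the 3 pathway genes 0 were called in males alone. Spread differed for 4 members on the scores and for 2 on log2 CPM, where the differences of Amd2, Srm and Oaz1, called in neither, changed sign to -0.087, 0.0045 and 0.0035. Pairs of members with an absolute mean r of at least 0.3 numbered 5, and 3 after block was removed, and Amd1 with Odc1 moved from 0.16 to 0.092 after the marker scores were removed. Sign also changed for Slc22a2 with the marker scores (0.16). Where no smaller number of animals shows it, the cause of these changes was not tested. Over all genes, the share called between the sexes was 19.7% to 28.6% within single generations and blocks, and the share called between generations was 2.87% in females and 2.76% in males. The interaction was called for 100 genes, for 51 with the marker scores, for 55 at a minimum count of 50 and for 0 by limma on the scores, where 870 had an unadjusted p under 0.05. Spread was called for 3.66% of genes on log2 CPM. A sex difference of at least 1.5-fold was called for 997 genes by edgeR. By limma on the scores, with score differences read as log2, it was called for 160. No paired analysis was possible because each animal gave 1 library and no number in the labels links animals of different groups. The correlations without the farthest animals, and the count of genes not overlapping between the sexes without the libraries apart in sex-linked RNA, were chosen after seeing the data. Depth limits low genes such as Slc22a2, with a median under 0.25 CPM in each sex.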
